A study of Mus musculus with 4 samples.

Results

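The complement genes C1qa, C1qb, C1qc, C3, C4b, Cfb, Cfp, C3ar1 and C5ar1 were followed across the cells of mouse tumor ascites. They were taken by symbol from the gene list of the count matrices, where all 9 of the 9 listed were found among 32285 genes. Single-cell RNA-seq of the ascites was done in 4 libraries, 2 labelled siCont and 2 labelled siFXR1-LNA, to ask how a siRNA against Fxr1 altered tumor and immune cells. All 4 libraries came from female FVB mice 6 weeks after injection of tumor cells. The methods give the injected cells as Br-Luc, a mouse ovarian tumor line that lacks p53 and brca1 and carries myc, Akt-myr and luciferase. Mice of both groups received siRNA with locked nucleic acid (LNA) bases into the peritoneal cavity with the carrier jetPEI, a control sequence in one group and a sequence against Fxr1 in the other. Ascites of 3 mice was pooled for each library, so a library is the replicate and differences between single mice were not measured. The methods state that a siFXR1-LNA library with fewer reads and cells was left out of the study's own analysis, without naming it, and both are used here. In the files siFXR1-LNA replicate 2 has the fewest cells kept, 16874 against 54344 in replicate 1.

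Complement is a cascade of plasma proteins that tags particles for uptake, calls leukocytes and lyses cells. C1q, built from the A, B and C chains, recognises bound antibody and dying cells and starts the classical pathway, which goes on through C4 to C3. The alternative pathway builds its own C3 convertase with factor B and is stabilised by properdin. The split products C3a and C5a act on the receptors encoded by C3ar1 and C5ar1. The liver makes most plasma C3, C4 and factor B, while tissue macrophages are known as the main source of C1q.

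The 3 C1q genes sit side by side on the minus strand of chromosome 4 (GRCm38) and together span 18675 bases. In that array C1qb lies at chr4:136880129-136886187, C1qc at chr4:136889804-136893065 and C1qa at chr4:136895917-136898803, with 3616 bases between the first pair and 2851 between the second. On chromosome 17 lie C3 at chr17:57203970-57228136, C4b at chr17:34728380-34743882 and Cfb at chr17:34856374-34862518. Cfp lies at chrX:20925454-20931555, C3ar1 at chr6:122847138-122856161 and C5ar1 at chr7:16246743-16259540. All 9 are protein-coding genes on the minus strand.

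Upstream sequence is shown for 2 of the C1q genes, whose levels moved together, and for C3, whose level moved the other way. RefSeq promoter windows (GRCm38.p6) were matched for 6 of the 9 genes. Capitals mark GAGGAA, the core of sites of PU.1 and other Ets factors, on either strand in the C1q genes, and TTGCNNAA, a C/EBP motif, in C3. Each sequence is read 5′ to 3′ on the minus strand and ends at the base before the annotated gene or, for C1qb, before the RefSeq start.
C1qb (chr4:136886201-136886450): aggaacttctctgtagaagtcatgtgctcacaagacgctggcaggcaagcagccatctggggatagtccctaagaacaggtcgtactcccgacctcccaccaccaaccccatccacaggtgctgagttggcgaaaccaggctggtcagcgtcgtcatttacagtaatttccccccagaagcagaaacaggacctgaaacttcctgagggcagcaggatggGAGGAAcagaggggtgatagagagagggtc
C1qc (chr4:136893066-136893164): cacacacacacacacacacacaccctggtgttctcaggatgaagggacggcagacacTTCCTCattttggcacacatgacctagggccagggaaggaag
C3 (chr17:57228137-57228386): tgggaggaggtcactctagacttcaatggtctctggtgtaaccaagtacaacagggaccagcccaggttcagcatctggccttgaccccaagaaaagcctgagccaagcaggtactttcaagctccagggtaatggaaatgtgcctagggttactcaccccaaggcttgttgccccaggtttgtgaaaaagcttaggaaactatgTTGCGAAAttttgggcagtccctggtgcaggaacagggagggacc
The GAGGAA match ended 24 bases before the RefSeq start in C1qb and 187 bases before it in C1qc, where the RefSeq start lies inside the annotated gene, past the end of the sequence shown. These letters, on either strand, were in the windows of 25.9% of 27025 genes, and the longer GAGGAAGT, found in C1qc, in 2.79%. The C3 match ended 37 bases before the start, and TTGCNNAA was in 10.8% of windows. Of the other motifs searched on both strands, TGANTCA (an AP-1 motif, in 7.82% of windows) was found in C3ar1 alone among the 6. No window of the 6 held TTCNNNGAA, a STAT motif (8.13% of windows), the interferon-stimulated response element (3.46%) or the NF-kB motif (0.414%). A match is a string of letters and says nothing on whether a factor was bound.

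Fxr1, the gene targeted by the siRNA, was not lower in the libraries labelled siFXR1-LNA. Over all barcodes it had 57.3 and 36.6 CPM (the gene’s UMIs in counts-per-million of all UMIs) in siCont replicates 1 and 2 and 104 and 74.4 in siFXR1-LNA replicates 1 and 2. With hemoglobin UMIs left out of the total, the values were 81.3, 62.1, 116 and 81.8 CPM. In macrophages the levels of Fxr1 were 65.4, 60.8, 73.5 and 68.7 CPM in the same order, a log2 difference of 0.36 ± 0.11 (SE) with an adjusted p of 0.084 in the edgeR test. In epithelial cells Fxr1 was at 109, 125, 140 and 139 CPM, a log2 difference of 0.28 ± 0.23 (adjusted p of 0.510, edgeR). The paper, with a much smaller set of cells and 1 siFXR1-LNA library left out, reports lower Fxr1 in siFXR1-LNA epithelial cells. Its test was a Wilcoxon rank sum test. The groups are therefore named by their labels throughout, and whether the counted 3′ tags overlap the target site was not examined. Values below are given in this order of libraries: siCont replicate 1, siCont replicate 2, siFXR1-LNA replicate 1 and siFXR1-LNA replicate 2.

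The matrices held 78179267 to 113606837 UMIs per library, and 132644 cells were kept, 16874 to 54344 per library, with a median depth of 1349 to 2653 UMIs. Hemoglobin took 29.5%, 41.1%, 10.0% and 9.11% of the UMIs. Between 3.41% and 7.84% of the barcodes of the smaller library recurred in another library, and 8238 barcodes stood in more than 1. Cell types were named from marker lists that hold none of the 9 genes, and each name means cells like that type. In cluster 0, left unnamed, were 46576 shallow cells, of which 41038 came from siFXR1-LNA replicate 1 and 5428 from replicate 2. Differences between groups were tested on UMI counts summed per cell type and library.

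Macrophages carried most of the complement UMIs. The 4371, 2140, 3931 and 3667 macrophages held 78.2%, 88.8%, 70.8% and 87.4% of all C1qb UMIs of their libraries. For C4b the shares were 81.0%, 88.4%, 68.1% and 87.8%, and for Cfb 80.6%, 87.8%, 69.1% and 87.6%. C3 was spread more widely, with 22.6%, 30.6%, 14.7% and 37.3% of its UMIs in macrophages. Erythrocyte barcodes, 22151 and 15801 in the siCont libraries, held 35.5% and 25.2% of the C3 UMIs there. The mean C3 level of erythrocyte barcodes in siCont was 38.8 CPM, near the 35.3 CPM of T cells. Unnamed cells, 41062 and 5477 in the siFXR1-LNA libraries, held 61.3% and 16.6% of the C3 UMIs there. The 7 markers that name macrophages, among them Cd68, Adgre1 and Csf1r, were all detected in them in every library, and their summed level was 31560, 21380, 13080 and 23290 CPM.

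**Figure D1:**
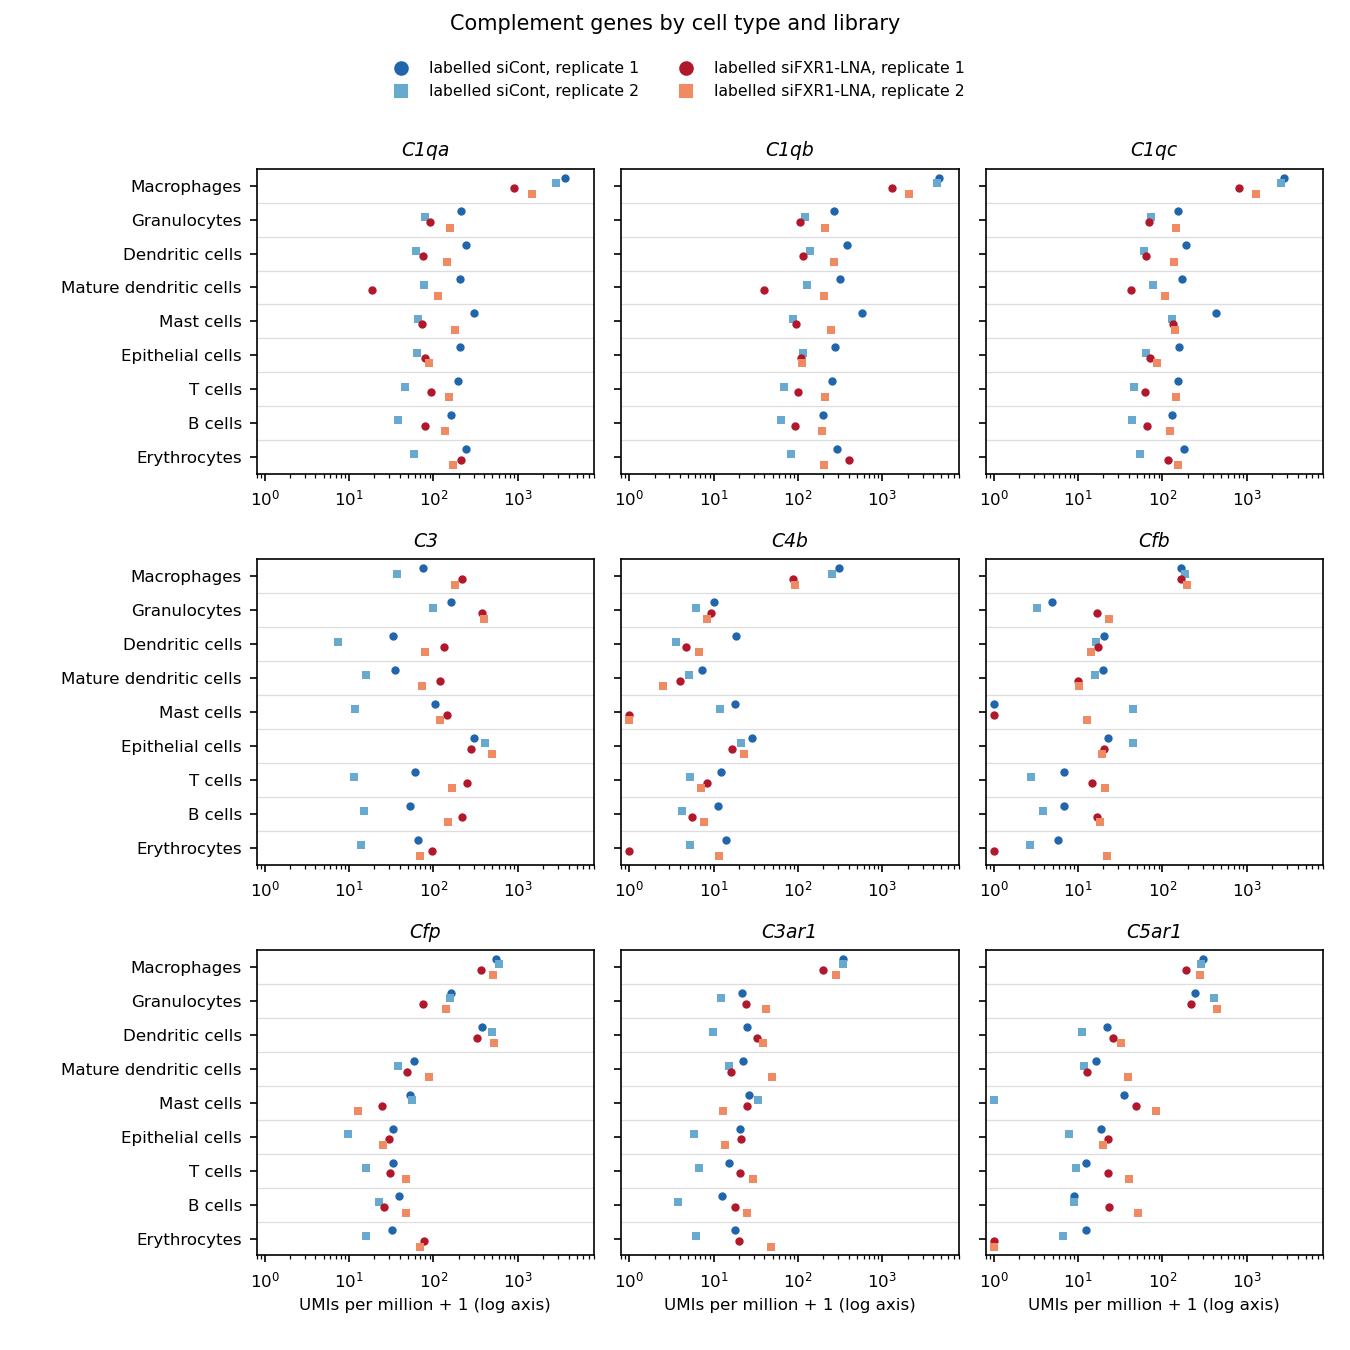
Level of each complement gene in 9 named cell types, as CPM plus 1 on a log axis; each point is 1 library, blue for siCont and red for siFXR1-LNA, and platelets are left out. The C1q genes C1qa, C1qb and C1qc, C4b, Cfb and C3ar1 stand apart in macrophages, where C1qb was at 4679, 4422, 1288 and 2048 CPM, while C3 is spread over all types.

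The 3 C1q chains set macrophages apart most widely in absolute level. C1qa was at 3658, 2846, 910 and 1455 CPM in macrophages, C1qb at 4679, 4422, 1288 and 2048 and C1qc at 2775, 2549, 811 and 1281. Every macrophage library lay above every library of the other 8 types for each chain. Both siCont libraries were higher than both siFXR1-LNA libraries for each chain. The share of all genes whose groups were separated in this way was not counted. In T cells, which should not express C1q, C1qb was at 251, 67.1, 98 and 206 CPM, 18.6, 65.9, 13.2 and 9.93 times below macrophages of the same library. The C1qb level of T cells was itself higher in siCont replicate 1 and siFXR1-LNA replicate 2, and granulocytes at 263, 120, 106 and 211 CPM and B cells at 198, 62.9, 92.3 and 192 CPM showed the same.

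The ratio between the chains varied between types and libraries. In macrophages the C1qa count was 0.782, 0.644, 0.706 and 0.710 of the C1qb count, and the C1qc count 0.593, 0.577, 0.630 and 0.625 of it. In granulocytes the ratio of C1qa to C1qb was 0.808, 0.645, 0.851 and 0.744, and in epithelial cells 0.751, 0.551, 0.727 and 0.789. Dendritic cells were lower, at 0.639, 0.440, 0.647 and 0.539, and T cells were at 0.765, 0.664, 0.946 and 0.737. Among B, T, dendritic and epithelial cells and granulocytes, cells with all 3 chains were a smaller share than among macrophages of the same library. At 1000 UMIs per cell, 71.1%, 64.0%, 23.1% and 35.5% of macrophages held at least 1 UMI of each chain, against 1.31%, 0%, 0.0946% and 0.472% of T cells, where 0 of 2224 cells in siCont replicate 2 allows a share of up to 0.135%. The share with all 3 chains was 3.00%, 0.638%, 0.361% and 1.86% in dendritic cells and 2.77%, 1.67%, 1.02% and 0.723% in epithelial cells. A cluster left unnamed, 585, 240, 22 and 49 cells in which all 5 B cell markers and 5 of the 7 macrophage markers were raised, had C1qb at 2673, 1738, 2216 and 2669 CPM.

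Shares of cells followed the levels. Of macrophages thinned to 1000 UMIs, 87.6%, 81.7%, 48.9% and 58.1% had C1qb, with exact binomial 95% intervals of 86.6 to 88.6, 79.9 to 83.3, 47.3 to 50.5 and 56.5 to 59.7%. Among T cells the shares with C1qb were 22.1%, 7.55%, 9.55% and 18.7% at the same depth. Between 11 and 72 macrophages and 17 to 131 T cells per library were shallower and left out. Without thinning, 92.7%, 87.4%, 72.0% and 81.4% of macrophages and 38.7%, 16.3%, 18.0% and 36.3% of T cells had a C1qb UMI. The mean shares of macrophages differed by -31.1 percentage points, with an exact two-sided permutation p of 0.333, the smallest that 2 against 2 libraries allow. These intervals cover counting error only.

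C4b, which encodes the C4 component cleaved by the classical and lectin pathways, was also a macrophage transcript. It was at 309, 254, 85.3 and 90.1 CPM in macrophages, 27.6, 58.7, 11.5 and 14.7 times its level in T cells. Epithelial cells came next by mean with 27.6, 20.2, 15.4 and 22 CPM, above every library of granulocytes (5.12 to 9.08 CPM). The highest libraries of dendritic cells (17.4 CPM) and mast cells (17.0 CPM) overlapped the epithelial range. Mouse C4b has a near-identical copy, C4a, and 57.7% of the 31-base words in the last 500 bases of its longest transcript also occur in C4a transcripts. The counts of C4b are therefore uncertain where reads could belong to either copy.

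Cfb and Cfp, of the alternative pathway, had different ranges. Cfb, the protease of its convertase, was at 163, 184, 165 and 196 CPM in macrophages, where the groups overlapped, and in no other named type above 44.2 CPM. The unnamed cluster with B cell and macrophage markers held Cfb at 90.3, 78.1, 52.8 and 97.8 CPM. Cfp, which encodes properdin, was at 546, 592, 366 and 508 CPM in macrophages and 370, 487, 330 and 518 CPM in dendritic cells, ranges that overlap. Both types were above every library of granulocytes, where Cfp was at 161, 155, 74.6 and 140 CPM. Within dendritic cells it was at 533, 679, 457 and 711 CPM in the Cd209a and Mgl2 subcluster and at 140, 88.8, 120 and 140 CPM in the Xcr1 and Clec9a subcluster.

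Of the receptors, only C3ar1 separated macrophages from granulocytes. C3ar1, the receptor of C3a, was at 344, 341, 198 and 281 CPM in macrophages and at 20.8, 11.4, 23.5 and 40.3 CPM in granulocytes. No other named type reached the lowest macrophage library. C5ar1, the receptor of C5a and a neutrophil chemoattractant receptor, was at 241, 410, 218 and 445 CPM in granulocytes and 302, 286, 188 and 275 CPM in macrophages. Those ranges overlap, and both lay above mast cells, the next type, whose highest library was at 82.7 CPM.

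C3, the component on which all pathways converge, had no type that stood alone. Epithelial cells, the class that holds the tumor cells in the study, were at 300, 404, 275 and 487 CPM. Granulocytes were at 160, 96.8, 376 and 398 CPM and macrophages at 73.5, 35.9, 215 and 179 CPM. T cells, at 60.2, 10.4, 248 and 163 CPM, and B cells, at 52.1, 14.2, 218 and 148 CPM, overlapped the macrophage range and reached past it at both ends. Against T cells of the same library, C3 was 4.98, 38.6, 1.11 and 2.99 times higher in epithelial cells, 2.65, 9.27, 1.51 and 2.45 times in granulocytes, and 1.22, 3.44, 0.866 and 1.10 times in macrophages. Only the siCont replicate 2 library had little C3 in lymphocytes, and there the distance between types was widest.

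**Figure D2:**
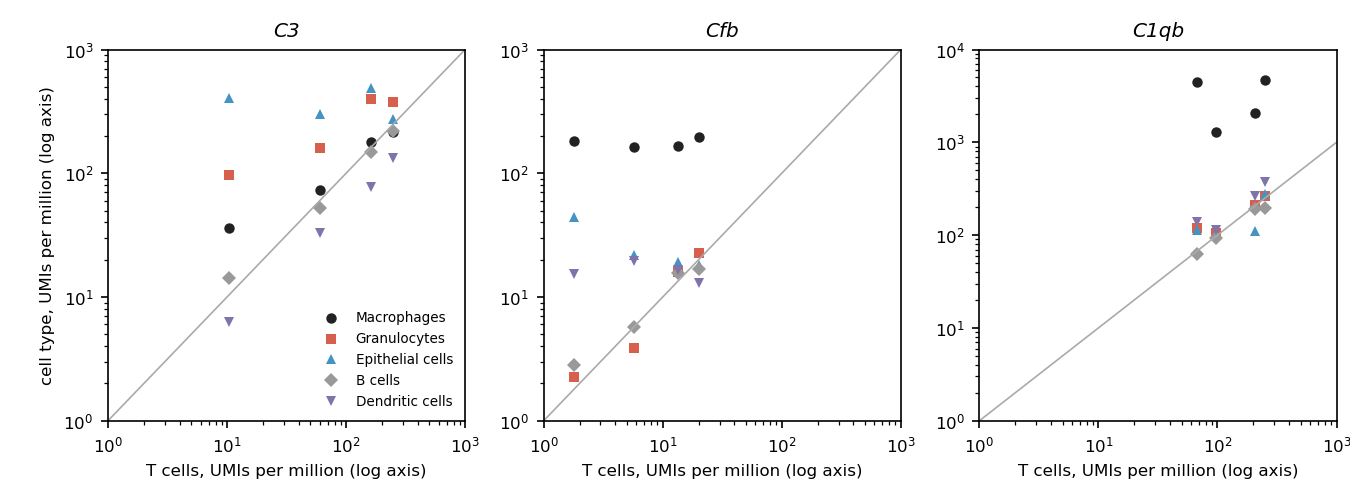
Level of C3, Cfb and C1qb in 5 cell types against the level in T cells of the same library, in CPM on log axes, 4 libraries per type; the line marks equal levels. Macrophages lie far above the line for C1qb and Cfb and on or near it for C3 in the libraries labelled siFXR1-LNA, where their ratio to T cells was 0.866 and 1.10.

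The macrophages of the libraries labelled siFXR1-LNA differed from those labelled siCont in 5 of the 9 genes, against 19.3% of all 14297 genes tested in that type. Lower were C1qa (log2 difference -1.27 ± 0.30 SE, adjusted p = 0.044), C1qb (-1.26 ± 0.29, adjusted p = 0.042), C1qc (-1.16 ± 0.27, adjusted p = 0.044) and C4b (-1.49 ± 0.14, adjusted p = 0.0072) by the edgeR quasi-likelihood test, with Benjamini-Hochberg adjusted p-values over all genes. Higher was C3 (2.05 ± 0.35, adjusted p = 0.020). Lower calls made up 9.9% and higher calls 9.42% of the genes tested, and the median log2 difference was -0.33 over the 9 genes and 0.0071 over all genes. The other 4 did not pass: Cfb 0.24 ± 0.16, Cfp -0.20 ± 0.21, C3ar1 -0.33 ± 0.20 and C5ar1 -0.16 ± 0.21 in log2, with adjusted p of 0.321, 0.533, 0.289 and 0.614.

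These calls rested on all 4 libraries. Without siCont replicate 1 or 2, C3 and C4b were still called, and the adjusted p of the C1q chains was 0.064 to 0.086. Without siFXR1-LNA replicate 1 none of the 5 was called, with log2 differences of -0.95 to -0.85 for the C1q chains, 1.92 for C3 and -1.43 for C4b, and without replicate 2 C4b alone was called (adjusted p = 0.049). The cells counted as macrophages also held markers of other types: the summed level of the 5 markers of Granulocytes was 104, 412, 1061 and 1297 CPM, that of the 5 markers of Erythrocytes 81920, 58660, 29630 and 12440 CPM and that of the 6 markers of Fibroblasts 78.0, 19, 224 and 66.8 CPM. The other-type lists had no marker at 0 except 1 fibroblast marker in 3 of the libraries, and their part in the differences was not tested.

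Higher C3 was measured in other types too, where it did not pass the test. The log2 difference in T cells was 2.40 ± 0.77, in B cells 2.28 ± 0.62, in dendritic cells 2.35 ± 0.63 and in granulocytes 1.40 ± 0.42, with adjusted p of 0.289, 0.213, 0.115 and 0.093. The difference between the C3 change of macrophages and that of T cells was -0.65 ± 0.43 in log2 (adjusted p = 0.549), and against B cells, dendritic cells and granulocytes the adjusted p was 0.673, 0.425 and 0.455. Among cells thinned to 1000 UMIs, C3 was detected in 7.19%, 3.67%, 18.6% and 16.5% of macrophages and in 6.40%, 1.48%, 22.1% and 15.6% of T cells. In siFXR1-LNA replicate 1 the macrophage share was below that of T cells and in replicate 2 their intervals overlapped, so these shares do not tell C3 in macrophages from background. Without thinning, macrophages held 4896 C3 UMIs in 3931 cells and 5879 in 3667 cells in those libraries, and T cells 568 in 1074 and 558 in 1312 cells, at a median depth of 5217 and 8605 UMIs against 1960 and 2374. Epithelial cells, 847, 122, 1478 and 418 in number, had the highest mean C3 of the named types over the 4 libraries, though overlapping granulocytes. Their C3 differed between the groups by 0.12 ± 0.30 in log2 (adjusted p = 0.860, edgeR). The C3 change of macrophages exceeded that of epithelial cells by 1.96 ± 0.50 (adjusted p = 0.128). Cluster 0, left unnamed though 3 of 5 epithelial markers were raised, was not counted among epithelial cells.

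**Figure D3:**
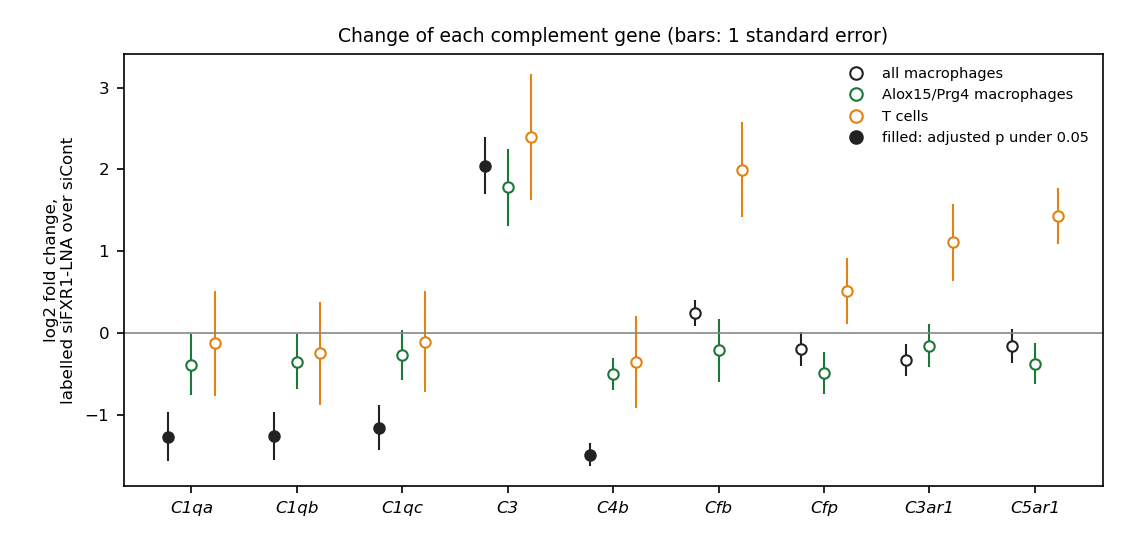
Log2 fold change of each complement gene, libraries labelled siFXR1-LNA over siCont, with bars of 1 standard error, in all macrophages (black), in the Alox15 and Prg4 subcluster (green) and in T cells (orange); filled points passed an adjusted p of 0.05. C1qa, C1qb, C1qc, C4b and C3 pass in all macrophages and in neither other group shown, at -1.27, -1.26, -1.16, -1.49 and 2.05, and C3 is at 2.40 in T cells without passing.

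The macrophages were not the same kinds of cells in the groups. A subcluster led by Alox15 and Prg4, in which all 5 markers of the Lyve1 list were raised, made up 68.1%, 57.3%, 30.1% and 35.2% of them. Another, led by Ace, Cd300e and Adgre4 among others and with all 5 patrolling monocyte markers raised, made up 23.7%, 33.3%, 0% and 0.0273%. A subcluster led by Nos2, the inducible nitric oxide synthase, made up 2.61%, 2.06%, 69.3% and 63.5%. Cycling macrophages were the rest, 5.58%, 7.29%, 0.636% and 1.20%. In the first clustering of all cells, 8 of the 9 genes (all but C3) were among the 2000 genes used. The subclusters came from clustering macrophages and dendritic cells again with variable genes chosen anew. Which of the 9 were among those was not recorded. Levels of all 9 across subclusters are therefore given as a description only.

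**Figure D4:**
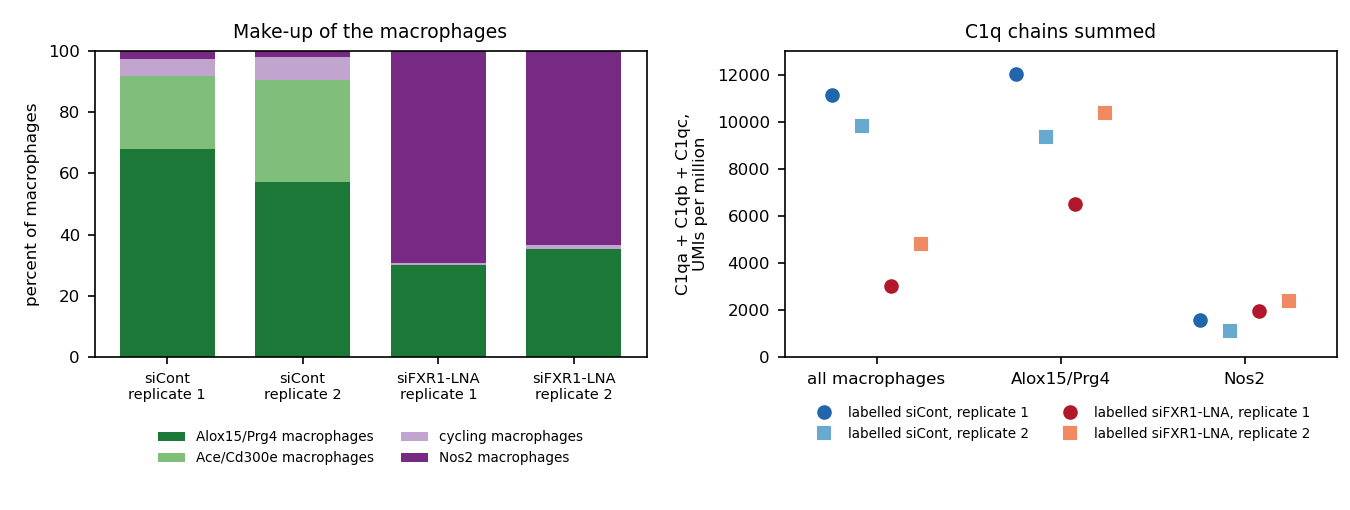
Left, percent of macrophages in each of 4 subclusters by library; right, the summed level of C1qa, C1qb and C1qc in CPM in all macrophages and in the Alox15/Prg4 and Nos2 subclusters, 1 point per library. The Nos2 subcluster goes from 2.61% and 2.06% to 69.3% and 63.5% of macrophages, and it is the one with little C1q in every library.

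C1q was high in 3 of the 4 macrophage subclusters and low in the Nos2 one. C1qb was at 4877, 4087, 2688 and 4325 CPM in the Alox15 and Prg4 subcluster and at 4878 and 5405 CPM in the Ace and Cd300e subcluster of the siCont libraries. In the Nos2 subcluster it was at 552, 435, 858 and 1069 CPM, still above T cells of the same library. All 3 chains were found in 79.2%, 65.5%, 50.2% and 73.0% of Alox15 and Prg4 cells and in 11.4%, 4.55%, 11.1% and 14.7% of Nos2 cells at 1000 UMIs. The Nos2 cells of the siCont libraries numbered 114 and 44 and had a median of 2486 and 2855 UMIs, against 6066 and 9630 UMIs in the siFXR1-LNA libraries. With complement genes left out of the clustering, a macrophage cluster led by Saa3, Mt2 and Ptges held 0, 1, 2109 and 1922 cells, and another with Nos2 among its leading genes 118, 42, 626 and 414 cells.

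Other genes were not distributed over the subclusters like C1q. Cfb was highest in the Ace and Cd300e subcluster in the siCont libraries, at 368 and 402 CPM, and in the Nos2 subcluster in the siFXR1-LNA libraries, at 199 and 237 CPM. In Alox15 and Prg4 cells Cfb was at 114, 68.9, 52.3 and 106 CPM. C4b was at 396, 396, 300 and 254 CPM in Alox15 and Prg4 cells, whose 10 leading genes include it, and at 93.9 and 76.9 CPM in Ace and Cd300e cells. In Nos2 cells C4b was at 211, 175, 21.4 and 20.8 CPM, and since the siCont libraries had 0 and 1 cells in the Saa3 cluster found without complement genes, these values are not read as a difference within 1 kind of cell. Cfp, C3ar1 and C5ar1 were found in every subcluster, with Cfp at 620, 747, 387 and 583 CPM, C3ar1 at 363, 314, 229 and 379 CPM and C5ar1 at 356, 343, 205 and 333 CPM in Alox15 and Prg4 cells.

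**Figure D5:**
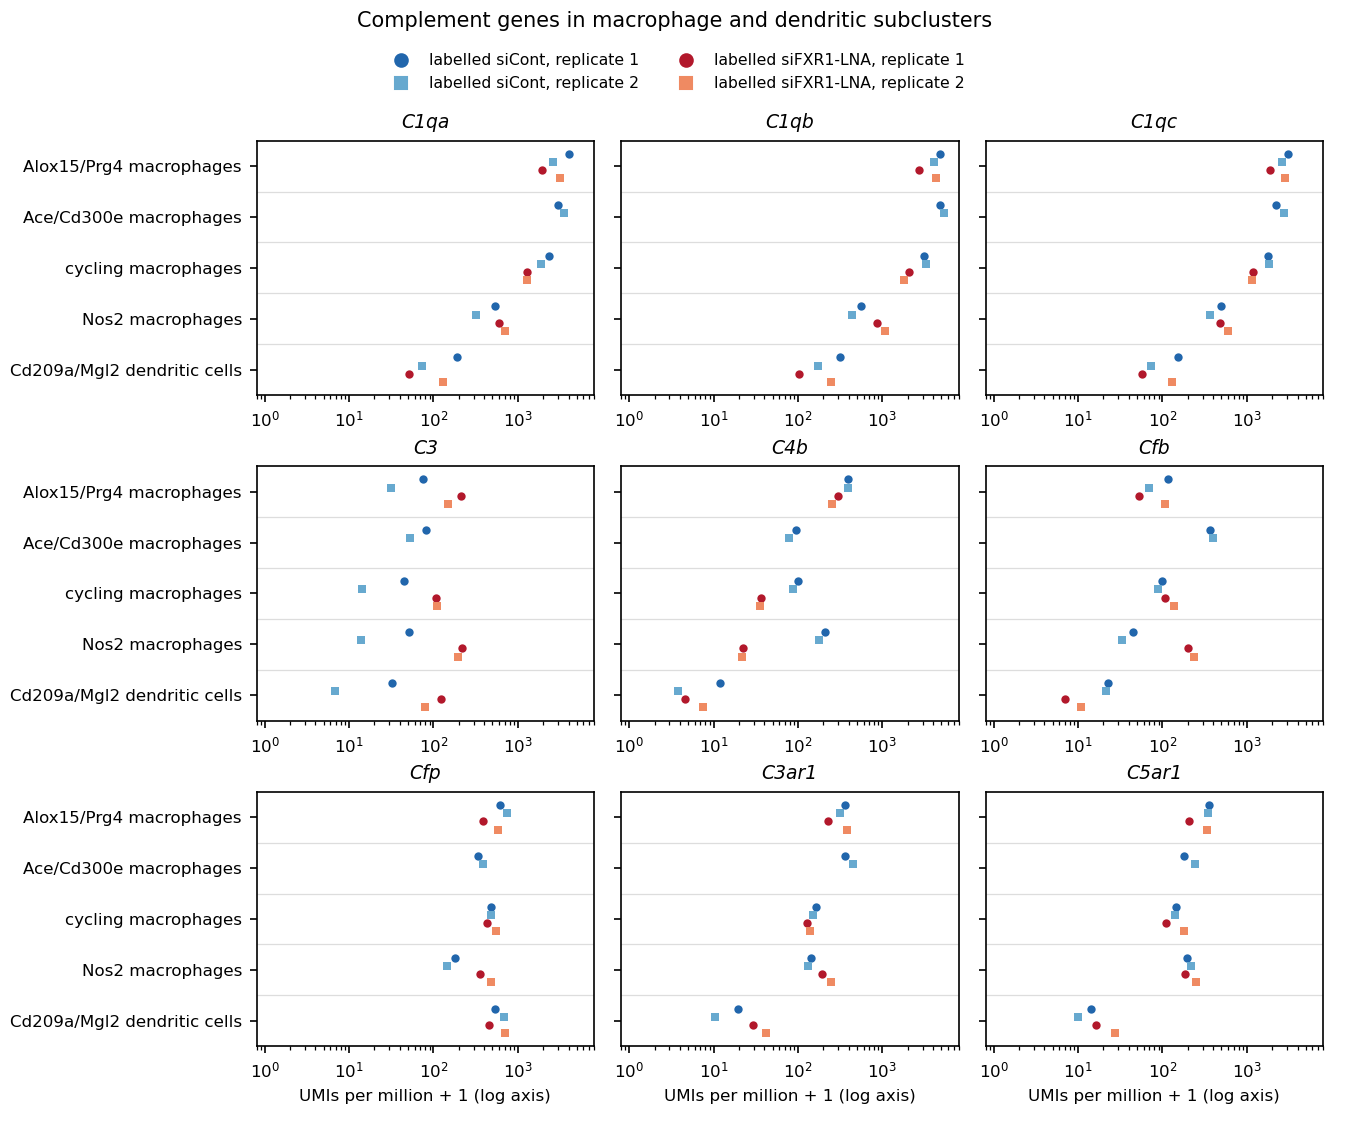
Level of each complement gene in 4 macrophage subclusters and 1 dendritic subcluster, as CPM plus 1 on a log axis, 1 point per library with at least 10 cells. The Ace/Cd300e subcluster has points for the siCont libraries only, where Cfb reached 402 CPM, and C1qa, C1qb and C1qc are lowest among macrophages in the Nos2 subcluster.

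Within Alox15 and Prg4 macrophages, the 1 subcluster with at least 50 cells in every library, no complement gene passed the test. edgeR called 0 of 12609 genes there (0%), with 1197 genes at an unadjusted p under 0.05, and DESeq2 called 175, of which 1 was a complement gene. The log2 differences were -0.39 ± 0.37 for C1qa, -0.36 ± 0.34 for C1qb, -0.27 ± 0.30 for C1qc, -0.50 ± 0.20 for C4b and 1.78 ± 0.47 for C3, with adjusted p of 0.740, 0.739, 0.783, 0.527 and 0.461. C3 was the only one of the 9 at an unadjusted p under 0.05. The C1qb levels of the groups overlapped, since siFXR1-LNA replicate 2 (4325 CPM) lay between the siCont libraries, while for C4b and C3 they did not overlap. How many of all genes had groups without overlap there was not counted. How much of the difference over all macrophages comes from their makeup was not tested.

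In granulocytes 1 of the 9 genes was called, against 3.7% of 12317 genes called in either direction and 1.13% called higher. At a resolution of 0.3 granulocytes split into clusters that were filled unequally by the groups, as given below, and the part of this split was not tested. Cfb was higher by 2.49 ± 0.56 in log2 (adjusted p = 0.037, edgeR), from counts of 3, 4, 181 and 262 UMIs, that is 3.89, 2.28, 15.8 and 22.5 CPM. T cells of the same libraries held 5.79, 1.79, 13.6 and 20.1 CPM of Cfb, so that granulocytes were at 0.672, 1.27, 1.17 and 1.12 times the T cell level. The call was lost without siFXR1-LNA replicate 1 (adjusted p = 0.063) or 2 (adjusted p = 0.231). The Cfb change of macrophages was smaller than that of granulocytes by -2.36 ± 0.57 in log2 (adjusted p = 0.012, with 4.39% of 14658 genes called).

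In B cells, T cells, dendritic cells and epithelial cells edgeR called 0 of the 9 genes, against 0.0883%, 0.496%, 2.68% and 7.87% of all genes tested. DESeq2 called 2, 1, 0 and 0. At an unadjusted p under 0.05 in the edgeR test there were 3, 3, 1 and 1 of the 9. Over all genes there were 1788 of 12458 in B cells, 1582 of 12292 in T cells, 2134 of 11404 in dendritic cells and 3106 of 13117 in epithelial cells. The 3 in both B and T cells were C3, Cfb and C5ar1. C5ar1 was at 7.83, 7.90, 22.2 and 49.8 CPM in B cells and 11.4, 8.50, 21.4 and 38.8 CPM in T cells, with log2 differences of 1.98 ± 0.40 and 1.43 ± 0.35 (adjusted p = 0.123 and 0.194). The siFXR1-LNA libraries were the higher ones in both, again without a count of such genes over all genes. The libraries labelled siFXR1-LNA also held more granulocytes, 5470 and 4797 against 436 and 902, and the summed markers of Granulocytes in T cells were 93.5, 743, 1658 and 2755 CPM. Their part in the C5ar1 levels of lymphocytes was not tested.

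The change itself differed between macrophages and another type for 1 to 2 of the 9 genes in 4 types and for 0 in epithelial cells. With no filter on low counts, the test called 6 against B cells, 7 against T cells, 5 against dendritic cells and 1 against epithelial cells. The share of all genes called in that setting was not recorded, so these counts are not read as a result about the 9 genes. With the filter, it was 1 gene against B cells, C5ar1, where 3.16% of 14884 genes were called. Against T cells it was C5ar1 again, where 1.77% of 14968 were. Against dendritic cells they were C3ar1 and C5ar1, with 7.68% of 14133 called, and in all of these the change in macrophages was the lower one. Against epithelial cells the edgeR test called 0 of the 9 and 0.74% of 15953 genes, with 3 of the 9 at an unadjusted p under 0.05 (C3, C4b and Cfb). The share of all genes at that unadjusted p was not recorded. The C1q chains fell in macrophages, with log2 differences from T cells of -1.48 ± 0.48, -1.27 ± 0.50 and -1.23 ± 0.47 for C1qa, C1qb and C1qc that did not pass (adjusted p of 0.170, 0.264 and 0.250).

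Of the 45 other complement genes listed, 23 were tested in macrophages and 2 were called, both lower, against 19.3% of all genes. At an unadjusted p under 0.05 in the edgeR test there were 10 of the 23, against 5263 of all 14297 genes. The median log2 difference of the 23 was 0.32. Fcna, which encodes a ficolin of the lectin pathway, was at 1589, 740, 136 and 241 CPM (log2 difference -2.43 ± 0.46, adjusted p = 0.026). Itgax, a subunit of complement receptor 4, was at 29.1, 41.8, 3.95 and 3.77 CPM (-3.01 ± 0.25, adjusted p = 0.0055). The receptor genes Vsig4 and Itgam, at log2 differences of -2.08 and 0.78, did not pass (adjusted p of 0.068 and 0.075). In granulocytes, where 3.7% of all genes were called, 3 of 21 tested were lower, Fcnb, C5ar2 and Itgax, by -5.85, -2.07 and -2.46 in log2. At a resolution of 0.3, a granulocyte cluster led by Bcl2l15 and Ccl3 held 6, 11, 5419 and 4543 cells. Another, led by Cxcr2 and Cd177, held 430, 891, 53 and 252 cells. Granulocytes were not tested by these clusters, so their differences are not read as changes within 1 kind of cell. Of 21 tested in epithelial cells, where 7.87% of all genes were called, the inhibitors Serping1 and Cd55 were lower, both by -1.21, and Itgam, a leukocyte integrin, higher by 2.06, and of 16 in T cells, with 0.496% of all genes called, Itgam was higher by 2.15. Mean Itgam in siCont and siFXR1-LNA was 16.39 and 79.6 CPM in epithelial cells and 19.73 and 98.15 CPM in T cells. In B cells, where it was not called, it was 31.35 and 100.9 CPM. Macrophages held 616.9 and 934 CPM and granulocytes 388 and 630 CPM. The part of free RNA from other cells in the low Itgam levels was not tested.

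Genes with the pattern most like each complement gene were taken from 11676 genes over 36 sums, 9 types in 4 libraries, by Pearson's r of log levels. The sums share libraries and free RNA, so r is a description. The 3 C1q chains summed were most like Trem2 (r = 0.939) and Folr2 (0.914), followed by Ctsb, Apoc2 and Apoe. C3ar1 was most like the scavenger receptor gene Msr1 (0.919), C5ar1 most like Bst1 (0.948) and Cfp most like Mpeg1 (0.887). C4b was most like Alox15 (0.868), Cfb most like Ptprm (0.853) and C3 most like Efhd1 (0.893).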

How the data were processed

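Single-cell RNA-seq of ascites was available as 4 libraries, grouped by their titles. Counts of UMIs per gene and barcode were deposited by the authors, who made them with Cell Ranger on mm10; the submitters' processing notes give version 7.0.0 and the paper's methods another version. They are not normalized and hold 78179267 to 113606837 UMIs per library. The labels name a 3′ v2 protocol and the series text a v3.1 kit, and which kit and which version apply was not settled.

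Barcodes passed with between 100 and 4800 genes and no more than 15% of UMIs from mitochondrial genes, after the methods. The paper reports far fewer cells after these limits, with 1 siFXR1-LNA library left out. The cells used here are therefore not the study's set, and the reason for the gap was not examined. In Seurat 5.3.0 (R 4.3.3), 2000 variable genes, 50 principal components and a resolution of 0.1 gave clusters, without integration. A cluster took a name when at least 3 markers of a list were raised 2-fold in at least 5% of its cells, from the list with the largest part raised. It stayed unnamed where another list had more genes among its 10 leading genes, or where its median was under 2000 UMIs with no marker leading and under 80% of the list raised. Scrublet (scanpy 1.11.5) called 0% to 0.0028% of cells as doublets and so did not work; the highest 5% of its scores were left out as an alternative. UMIs were summed per type and library, given as CPM, and tested with edgeR 4.0.16 (TMM, filterByExpr, quasi-likelihood test, threshold 0.05). The SE given or drawn with a log2 difference was calculated back from that test. It is the absolute log2 difference divided by the square root of the F statistic. Counts were simulated with a fixed fold change and a fixed dispersion that were not estimated from these data. The recovered shares therefore do not give the power of the tests for the differences measured here. For macrophages, 70.4% of 196 changed genes were recovered among 14281. The recovered share was 56.84% in granulocytes, 57.07% in B cells, 51.3% in T cells, 67.35% in dendritic cells and 66.67% in epithelial cells. In the Alox15 and Prg4 subcluster it was 74.11%. For the difference of the change between macrophages and T cells it was 28% of 200. DESeq2 1.42.0 was an alternative. The members, gene lists, the rule for named genes (all 9 members, pathway genes past the threshold and the most alike genes) and tests were chosen with earlier results of these data known. No SD is given over 2 libraries, since each value is shown.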

Additional observations from a re-analysis of the deposited data

Results flagged for a closer look

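Changes between the groups differed between macrophages and another cell type for 5 pairs, by edgeR's test of the interaction with the library as a block. The log2 change of Cfb was 0.24 in macrophages and 2.49 in granulocytes, a difference of -2.36 (adjusted p = 0.012). For C5ar1 the change in macrophages was lower than in B cells by -2.06 (adjusted p = 0.0041, with 3.16% of genes called), than in T cells by -1.59 (adjusted p = 0.024, 1.77%) and than in dendritic cells by -0.99 (adjusted p = 0.030, 7.68%). For C3ar1 it was lower than in dendritic cells by -1.41 (adjusted p = 0.0092). In each pair the other type had few UMIs of the gene, 3 to 262 per library for Cfb in granulocytes and 44 to 133 for C5ar1 in B and T cells. In dendritic cells C3ar1 had 154, 47, 42 and 87 UMIs. No library was left out of these tests.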

How the results depend on the processing

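The 5 complement genes called in macrophages numbered 5 with DESeq2, with no filter on low counts, with the replicate number as a block, with at least 500 genes per cell, without the highest doublet scores, with complement genes left out of the clustering and at a resolution of 0.3. Leaving out 1 library gave 0 to 2 there, 0 to 2 in granulocytes and epithelial cells, 0 to 5 in B cells, 0 to 3 in T cells and dendritic cells and 0 to 1 in the Alox15 and Prg4 subcluster. Against 1 call in granulocytes, DESeq2 and the replicate block gave 2, and no filter or leaving out doublet scores gave 0. Against 0, DESeq2 gave 2 in B cells, 1 in T cells and 1 in the subcluster, no filter gave 3, 3, 2, 1 and 1 in B, T, dendritic and epithelial cells and the subcluster, and the replicate block gave 3, 3, 1 and 1 in B, T and dendritic cells and the subcluster. With no filter, the members whose change differed from macrophages were 6 for B cells and 7 for T cells (1 each before), 5 for dendritic cells (2 before) and 1 for epithelial cells (0 before). For these differences the share of all genes called with no filter was not recorded. The cause of these shifts was not tested.

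Same-numbered libraries deviated from their group means with a correlation of 0.361 in macrophages, 0.401 in granulocytes, 0.328 in B cells, 0.319 in T cells, 0.231 in dendritic cells, 0.0067 in epithelial cells and 0.115 in the subcluster, and with 2 pairs the numbers are not taken to pair the libraries. Of 104 fold changes with 1 library left out, 4 changed sign: Cfp (0.044, range -0.44 to 0.044) and C5ar1 (0.11, range -0.44 to 0.11) in macrophages without siFXR1-LNA replicate 1, and C3 in epithelial cells without siCont replicate 1 (-0.14) or siFXR1-LNA replicate 2 (-0.26, range -0.26 to 0.43). Under the other alternatives, 147 of 172 kept direction and call, 23 became called and 2, both of Cfb in granulocytes, lost the call.

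Counts over all genes moved by over 1.5 times in several settings. Macrophages had 2762, and 397 to 1713 without 1 library. Granulocytes had 456, with 0 with no filter, 977 with the block, 297 at 500 genes per cell, 287 without doublet scores and 155 to 2346 without 1 library. B cells had 11, with 464 by DESeq2, 1103 with no filter, 825 with the block, 58 without doublet scores and 0 to 1184 without 1 library. T cells had 61, with 413, 1105 and 920 by DESeq2, no filter and the block and 0 to 582 without 1 library. Dendritic cells had 306, with 527, 1432 and 828 in those settings, 180 without doublet scores, 112 at a resolution of 0.3 and 0 to 869 without 1 library. Epithelial cells had 1032, with 1950 with no filter, 1634 with the block and 651 to 2056 without 1 library. The subcluster had 0, with 175, 878 and 90 by DESeq2, no filter and the block and 0 to 33 without 1 library. Unthinned, the shares of macrophages with C1qa, C1qb, C1qc, C3 and C4b differed by -15.8, -13.4, -16.1, 41.6 and -18.7 percentage points. With 1 sample left in a group, that sample is assumed to vary like the others. Counts near 3 UMIs and free RNA limit what can be said of low levels.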

Other observations

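The unnamed cluster 0, with 41038 and 5428 cells in the siFXR1-LNA libraries and 57 and 53 in the siCont ones, carried complement UMIs too. Its C3 level was 332 and 199 CPM in siFXR1-LNA replicates 1 and 2, 1.34 and 1.22 times that of T cells of the same library. C1qb was at 148 and 300 CPM there. The cluster was led by Sprr1a, Ndufa4l2 and Ccn2 and had a median of 1281 UMIs per cell. Its best marker list was that of Epithelial cells, with 3 of 5 markers raised, and it stayed unnamed by the rules on leading genes and depth. These cells enter no comparison.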
